A study of Homo sapiens with 12 samples.

Results

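The PIM kinases and a set of genes whose proteins are known PIM substrates were followed across 12 samples of PC-3 cells, an established human prostate cancer line. The members were PIM1, PIM2 and PIM3, the cell cycle inhibitors CDKN1A and CDKN1B, the cell cycle phosphatases CDC25A and CDC25C, the translation factor EIF4B, the chemokine receptor CXCR4 and the efflux pump ABCG2. They were taken by name, as the probes whose RefSeq transcript belongs to one of these 10 genes. No measured value entered that rule, but the genes were chosen with earlier results of these data known. They held 13 probes in 31 spots, and all 10 passed the filter on dim values, out of 25746 genes tested. CDKN1B had 2 probes and EIF4B had 3, while every other member had a single probe.

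PIM1, PIM2 and PIM3 are serine/threonine kinases that are active as soon as they are made, so their activity follows their mRNA and protein levels more than a switch by upstream kinases. Cytokine signals through JAK kinases and STAT factors induce them, and they promote survival, cell cycle entry, protein synthesis, migration and drug efflux by phosphorylating other proteins. Because a substrate is modified after translation, the mRNA of a substrate gene is a separate readout from its phosphorylation, which the arrays did not measure.

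The study asked how PIM1 and the transcription factor NFATC1, itself a PIM1 substrate, change gene expression together. The 6 groups had 2 samples each. Control cells had been stably transfected with the empty pcDNA3.1 vector, and PIM1 cells with the same vector carrying human PIM1. Both lines also carried the fluorescent marker plasmid pCMV-Td-Tomato and had gone through selection with the antibiotic G418. The labels name no separate lines of either kind. Stable PIM1 and any other difference between the lines therefore cannot be told apart. WT and MM cells were the control line transiently transfected with wild-type NFATC1 or with a multi mutant NFATC1, in which serines and threonines at PIM1 target sites were replaced by alanine. PIM1 + WT and PIM1 + MM cells were the PIM1 line transfected in the same manner. Transfected and untransfected cells of a sample were profiled together, so that a change in all cells and a larger change in some of them cannot be told apart.

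Each of the 6 two-colour arrays, on 2 slides, held a Cy3 sample (control, WT or PIM1 + WT) and a Cy5 sample (PIM1, MM or PIM1 + MM), with no dye swap. Values are log2 intensities after quantile normalization, which gives all channels the same distribution. A value is called well above background where the scanner software flagged at least 50% of the probe's spots so. In each channel, 56.9% to 69% of spots reached this. Changes are differences of log2 values with their standard error (SE) from a limma fit over the 12 samples, and a gene passed the test at a log2 fold change of 0.1 or more in size with a p below 0.05 after Benjamini-Hochberg adjustment. The study's methods name the same cutoffs without stating an adjustment. Nothing states that the 2 samples of a group came from separate cultures, so the p-values measure the spread between these samples, which may be technical. The effect of stable PIM1 within a dye is the mean of PIM1 + WT minus WT, both in Cy3, and PIM1 + MM minus MM, both in Cy5. Of the epithelial markers checked for the cell line, KRT8, KRT18, KRT19 and EPCAM were well above background in 12 of 12 samples and CDH1 in 5.

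The promoters of the 3 members that differed with stable PIM1 within a dye, CDC25A, CDC25C and EIF4B, are shown because these genes moved in the same direction. The sequences are from RefSeq on GRCh38.p14 and run from 250 bases before to 50 bases after a start site: chr3:48188368-48188667 on the minus strand for CDC25A, chr5:138331828-138332127 on the minus strand for CDC25C (1 of its 4 listed start sites) and chr12:53006206-53006505 on the plus strand for EIF4B. Capitals mark matches, on either strand, to an E2F site (TTTGGCGC), a cell cycle homology region or CHR (TTTGAA), the CCAAT box and an E-box (CACGTG). No matches overlapped.
CDC25A: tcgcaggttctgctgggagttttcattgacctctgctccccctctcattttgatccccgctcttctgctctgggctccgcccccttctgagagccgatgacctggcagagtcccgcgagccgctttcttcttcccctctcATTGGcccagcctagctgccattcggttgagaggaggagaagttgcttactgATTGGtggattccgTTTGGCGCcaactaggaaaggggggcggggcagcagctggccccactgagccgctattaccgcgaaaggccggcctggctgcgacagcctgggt
CDC25C: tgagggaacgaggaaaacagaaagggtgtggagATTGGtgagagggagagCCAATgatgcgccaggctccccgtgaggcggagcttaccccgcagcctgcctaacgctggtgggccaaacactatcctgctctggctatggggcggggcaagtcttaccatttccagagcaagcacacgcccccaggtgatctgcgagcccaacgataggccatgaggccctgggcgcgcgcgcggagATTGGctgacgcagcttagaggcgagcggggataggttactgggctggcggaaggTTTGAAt
EIF4B: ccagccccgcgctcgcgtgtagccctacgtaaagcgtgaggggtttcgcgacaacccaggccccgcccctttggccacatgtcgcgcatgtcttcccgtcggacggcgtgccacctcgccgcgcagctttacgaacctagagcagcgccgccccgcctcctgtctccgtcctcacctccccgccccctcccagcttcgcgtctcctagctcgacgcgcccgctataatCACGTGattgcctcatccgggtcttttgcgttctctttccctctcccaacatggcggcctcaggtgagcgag

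The CDC25A window held the E2F letters 44 bases before the start site and 2 CCAAT boxes, and the E2F letters are in 0.652% of the 35116 promoters of this length. The CDC25C window held 3 CCAAT boxes and a CHR 43 bases after its start site. The same CHR lies 30 bases before another listed start of the gene. With 4 matches, the window shown held the most among the listed starts of CDC25C. The windows of its other starts held 2, 0 and 0. The CHR letters are in 15.2% of all promoters and the CCAAT box in 34.6%. The EIF4B window held neither, but an E-box 22 bases before the start, present in 7.26% of promoters. Members whose promoters are not shown held these letters too. The CHR was in CXCR4 and ABCG2, the CCAAT box in PIM2, CDKN1B and CXCR4, and the E-box in ABCG2. These letters were therefore not particular to the genes shown. The letters of a FOXO site (TGTTTAC, in 3.42% of promoters) were in the promoters of 0 members, and those of a STAT site (TTCNNNGAA, in 7.66%) in 1, ABCG2. A match describes the letters of the window and not the binding of a factor.

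The levels of the members are given in the order of their roles, the kinases first.

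**Figure D1:**
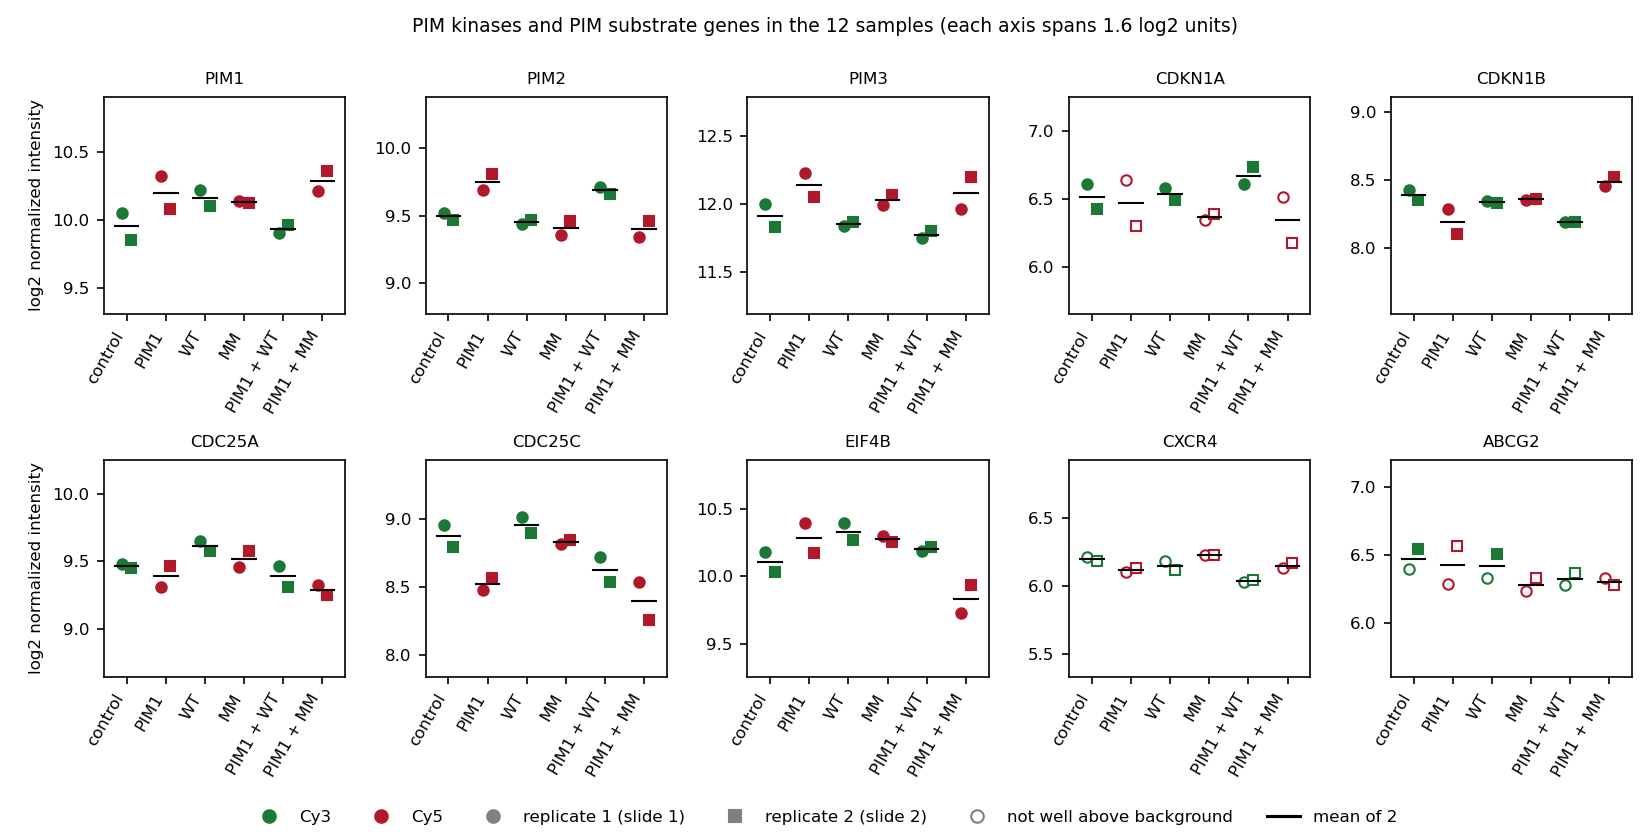
Log2 normalized intensity (vertical axes, all of the same span) of the 10 members in the 6 groups. Circles are replicate 1 on slide 1 and squares replicate 2 on slide 2, green for Cy3 and red for Cy5, open where the probe was not well above background, and black lines are group means. CDC25C lies lower in the groups with stable PIM1, while PIM1 itself spans only 9.85 to 10.36.

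The PIM1 probe read 10.05 and 9.85 in control cells, 10.32 and 10.08 in PIM1 cells, 10.22 and 10.10 in WT cells, 10.14 and 10.12 in MM cells, 9.90 and 9.96 in PIM1 + WT cells, and 10.21 and 10.36 in PIM1 + MM cells. PIM1 cells lay above control cells in both replicates, but PIM1 + WT cells lay below both WT samples, so the 3 groups labelled with stable PIM1 were not uniformly higher at this probe. The difference between PIM1 and control cells was 0.25 (SE 0.0996, limma adjusted p = 0.107), and it was 0.27 on slide 1 and 0.23 on slide 2. It turned to -0.31 with median centring in place of quantile normalization (adjusted p = 0.351), a setting that moved the median change of all genes in this comparison from 0.01 to 0.13, and it ran from there to 0.37 across the alternatives. With the array, which each control and PIM1 pair shared, as a fixed block, the same 0.25 passed the test (adjusted p = 0.0124). Within a dye, the effect of stable PIM1 on the PIM1 probe was -0.04 (SE 0.0704, adjusted p = 0.749). Whether the probe lies in the part of PIM1 that the vector carries was not tested. This probe therefore does not check the labels, and the group names follow the labels throughout. The study states that overexpression of PIM1 and/or NFATC1 in the cell samples was checked by real-time qPCR, which these arrays do not hold.

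Against PIM1 + MM cells, PIM1 mRNA was lower in PIM1 + WT cells (log2 fold change -0.36, SE 0.0996, adjusted p = 0.0403), with both PIM1 + WT samples below both PIM1 + MM samples. This comparison sets Cy3 against Cy5, and the call was lost without PIM1 + WT replicate 1, PIM1 + WT replicate 2 or PIM1 + MM replicate 2 (log2 fold change -0.39 to -0.28, adjusted p = 0.12 to 0.207). It was also lost with loess normalization, median centring, the processed signal and a fit to these groups alone (-0.36 to -0.04, adjusted p = 0.0549 to 0.938). WT and MM cells without stable PIM1 overlapped at this probe. The interaction, which asks whether the WT minus MM difference depends on stable PIM1 and from which a fixed dye difference drops out, was -0.38 for PIM1 (SE 0.141, adjusted p = 0.218).

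PIM2, a kinase that overlaps with PIM1 in its substrates and is best known in blood cells, read 9.52 and 9.47 in control cells, 9.69 and 9.81 in PIM1 cells, 9.44 and 9.47 in WT cells, 9.36 and 9.46 in MM cells, 9.71 and 9.66 in PIM1 + WT cells, and 9.34 and 9.46 in PIM1 + MM cells. The 4 samples of PIM1 and PIM1 + WT cells were the highest, and the other 8 lay between 9.34 and 9.52, PIM1 + MM cells among them. PIM2 rose by 0.26 in PIM1 against control cells (SE 0.0695, adjusted p = 0.022; 0.17 on slide 1 and 0.35 on slide 2), a direction that median centring turned to -0.28 (adjusted p = 0.268). It also rose by 0.23 in PIM1 + WT against WT cells, where both samples were in Cy3 (SE 0.0695, adjusted p = 0.0357), but was level between PIM1 + MM and MM cells (-0.01). Against PIM1 + MM cells, PIM2 was higher by 0.28 in PIM1 + WT cells (SE 0.0695, adjusted p = 0.0239). Multi mutant NFATC1 added to PIM1 cells, a comparison within Cy5, went with PIM2 lower by 0.35 (log2 fold change -0.35, SE 0.0695, adjusted p = 0.0135), the same on both slides (-0.35 and -0.36). Whether the effect of stable PIM1 on PIM2 differs between the NFATC1 forms was the interaction, 0.24 (SE 0.0983, adjusted p = 0.265), and it did not pass.

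The PIM2 calls rested on few samples. The call against control cells was lost without control replicate 1, control replicate 2 or PIM1 replicate 2 (0.20 to 0.29, adjusted p = 0.0586 to 0.116), and in a fit to these groups alone (adjusted p = 0.127). The call in PIM1 + WT against WT cells was lost without any 1 of WT replicate 1, WT replicate 2, PIM1 + WT replicate 1 and PIM1 + WT replicate 2 (0.20 to 0.26, adjusted p = 0.0899 to 0.182) and with median centring or the array as a random block (0.02 and 0.23, adjusted p = 0.957 and 0.0547). That against PIM1 + MM cells was lost without PIM1 + WT replicate 1, PIM1 + WT replicate 2 or PIM1 + MM replicate 1 (0.23 to 0.31, adjusted p = 0.0821 to 0.148), and with median centring, the processed signal or these groups alone (0.22 to 0.59, adjusted p = 0.0714 to 0.3). The fall in PIM1 + MM against PIM1 cells was lost only without PIM1 + MM replicate 1 (-0.30, adjusted p = 0.0533) among the samples left out, and also with median centring or these groups alone (-0.27 and -0.35, adjusted p = 1 and 0.226).

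PIM3, the kinase of the family best known in liver and pancreas tumours, lay between 11.75 in PIM1 + WT replicate 1 and 12.23 in PIM1 replicate 1. The 3 Cy5 groups had the highest means (12.14, 12.08 and 12.03 in PIM1, PIM1 + MM and MM cells) and the 3 Cy3 groups the lowest (11.91, 11.86 and 11.77 in control, WT and PIM1 + WT cells), so the order of the groups followed the dye. PIM3 passed the test in none of the 9 comparisons in the limma fit without a block, though its unadjusted p was below 0.05 between PIM1 and control cells (0.0402) and between PIM1 + WT and PIM1 + MM cells (0.011). With the array that these pairs of samples share as a random block, PIM3 passed in PIM1 minus control, where 34.7% of all genes then passed, and in PIM1 + WT minus PIM1 + MM, where 26.7% did.

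CDC25C encodes a phosphatase that activates CDK1 at the start of mitosis, and PIM kinases are known to phosphorylate it. Its probe read 8.96 and 8.80 in control cells, 8.48 and 8.57 in PIM1 cells, 9.02 and 8.90 in WT cells, 8.82 and 8.85 in MM cells, 8.72 and 8.54 in PIM1 + WT cells, and 8.54 and 8.26 in PIM1 + MM cells. Every sample of a group with stable PIM1 lay below every sample of a group without it, 6 against 6. The highest of the former was 8.72 and the lowest of the latter 8.80. By their labels, these were samples of the PIM1 line against samples of the control line, and not of separate lines. CDC25C fell by 0.36 in PIM1 against control cells (SE 0.105, adjusted p = 0.0344), by 0.33 in PIM1 + WT against WT cells (SE 0.105, adjusted p = 0.0469) and by 0.43 in PIM1 + MM against MM cells (SE 0.105, adjusted p = 0.0193). Within a dye, the mean effect of stable PIM1 was -0.38 (SE 0.0745, adjusted p = 0.00352), with -0.28 on slide 1 and -0.48 on slide 2. The lower values stood in both dyes and on both slides. Across all the alternatives run, CDC25C stayed below 0 in these 4 comparisons, between -0.73 and -0.23.

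The CDC25C call within a dye held without any 1 of the 8 samples in it and was lost only with median centring, where the difference was larger and less precise (-0.51, adjusted p = 0.0889). The calls of the single comparisons were weaker. In PIM1 against control cells the call was lost without control replicate 1, PIM1 replicate 1 or PIM1 replicate 2 (-0.40 to -0.28, adjusted p = 0.0658 to 0.187). In PIM1 + WT against WT cells it was lost without any 1 of WT replicate 1, WT replicate 2, PIM1 + WT replicate 1 and PIM1 + WT replicate 2 (-0.42 to -0.24, adjusted p = 0.0596 to 0.266). In PIM1 + MM against MM cells it was lost without MM replicate 1, MM replicate 2 or PIM1 + MM replicate 2 (-0.45 to -0.29, adjusted p = 0.073 to 0.11). Other settings that ended a single call, among them the processed signal and fits to the compared groups alone, left -0.52 to -0.23.

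CDC25A encodes the phosphatase that activates CDK2 at entry into S phase, and PIM1 is known to bind and phosphorylate it. It read 9.48 and 9.45 in control cells, 9.31 and 9.47 in PIM1 cells, 9.65 and 9.58 in WT cells, 9.46 and 9.58 in MM cells, 9.47 and 9.31 in PIM1 + WT cells, and 9.33 and 9.25 in PIM1 + MM cells. PIM1 + WT cells lay below WT cells and PIM1 + MM cells below MM cells, while control and PIM1 cells overlapped. Stable PIM1 within a dye went with CDC25A lower by 0.23 (log2 fold change -0.23, SE 0.0584, adjusted p = 0.0135), with -0.16 on slide 1 and -0.30 on slide 2. Neither of the comparisons in this mean passed alone, at -0.23 each (adjusted p = 0.0714 for PIM1 + WT against WT cells and 0.0847 for PIM1 + MM against MM cells). The call was lost without WT replicate 1, MM replicate 2 or PIM1 + WT replicate 2 (-0.21 to -0.19, adjusted p = 0.0526 to 0.0554) and with median centring (-0.41, adjusted p = 0.162).

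CDKN1A, or p21, and CDKN1B, or p27, are inhibitors of cyclin-dependent kinases, and PIM kinases are known to move them out of the nucleus. CDKN1A was well above background in all 6 Cy3 samples and in 0 of 6 Cy5 samples, so its detection followed the dye. Its raw intensity was 53.5 to 70.5 in Cy3, where 90% of negative control spots lay under 36 to 46, and 123 to 161 in Cy5, where that limit was 122 to 132. Levels can be compared for CDKN1A only within Cy3: 6.61 and 6.42 in control, 6.58 and 6.49 in WT, and 6.61 and 6.73 in PIM1 + WT cells. PIM1 + WT cells lay above both WT samples by little and overlapped with control cells, and neither comparison passed. Against Cy5 groups only a nominal bound from the means was possible, which leaves out the spread between samples. It was 1.1-fold for WT over MM cells (limma adjusted p = 0.763) and 1.07-fold for PIM1 + WT over PIM1 + MM cells (limma adjusted p = 0.147). Neither difference passed, so a higher level in the Cy3 group is not shown.

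The 2 probes of CDKN1B, annotated to the same transcript, went different ways. Probe A_24_P81841, with 10 spots on the array, read 8.98 and 8.91 in control cells, 9.33 and 9.26 in PIM1 cells, 8.96 and 8.97 in WT cells, 9.15 and 9.22 in MM cells, 8.68 and 8.79 in PIM1 + WT cells, and 9.07 and 9.18 in PIM1 + MM cells. Probe A_23_P204696, with a single spot, read 7.86 and 7.79 in control cells, 7.24 and 6.94 in PIM1 cells, 7.72 and 7.69 in WT cells, 7.55 and 7.51 in MM cells, 7.71 and 7.59 in PIM1 + WT cells, and 7.83 and 7.85 in PIM1 + MM cells. At the first probe all 6 Cy5 samples were above all 6 Cy3 samples, and at the second probe the lowest 2 samples were those of PIM1 cells. PIM1 against control cells gave 0.35 at the first (SE 0.0699, adjusted p = 0.00528 over all probes) and -0.74 at the second (SE 0.0936, adjusted p = 0.000439). The sign of the first turned to -0.09 with median centring (adjusted p = 0.736). Its call was lost in a fit to these groups alone (adjusted p = 0.0595), while that of the second held in every alternative run, between -1.02 and -0.59. This comparison set Cy5 against Cy3, and the second probe was dim. Its raw intensity in PIM1 cells was 227 and 150, where 90% of negative control spots lay under 127 and 122. In control cells it was 197 and 191, with limits of 46 and 41.9.

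The median over both probes, which the methods used for a gene, therefore averaged opposing values for CDKN1B. On that scale CDKN1B was lower in PIM1 + WT cells when set against PIM1 + MM cells (log2 fold change -0.29, SE 0.0699, adjusted p = 0.0224), and PIM1 + MM cells exceeded PIM1 cells by 0.29 (SE 0.0699, adjusted p = 0.0286). Taking the brighter probe instead turned the latter to -0.17 (adjusted p = 0.143). The first of these 2 calls was lost without PIM1 + WT replicate 1, PIM1 + WT replicate 2 or PIM1 + MM replicate 2 (-0.29 to -0.26, adjusted p = 0.109 to 0.114), and the second without PIM1 replicate 2 or PIM1 + MM replicate 2 (0.20 and 0.26, adjusted p = 0.0888 and 0.127). Loess, median centring or these groups alone also ended the first call (-0.29 to -0.10, limma adjusted p = 0.0526 to 0.741). Median centring or these groups alone ended the second call (0.22 to 0.29). Within a dye, the first probe gave -0.15 for stable PIM1 (SE 0.0494, adjusted p = 0.0464), a call lost in 11 of 20 alternatives, and the second gave 0.13 (adjusted p = 0.173). The second probe also rose in PIM1 + MM against PIM1 cells, by 0.75 (SE 0.0936, adjusted p = 0.00212), a call lost with median centring or these groups alone (0.56 and 0.75).

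**Figure D2:**
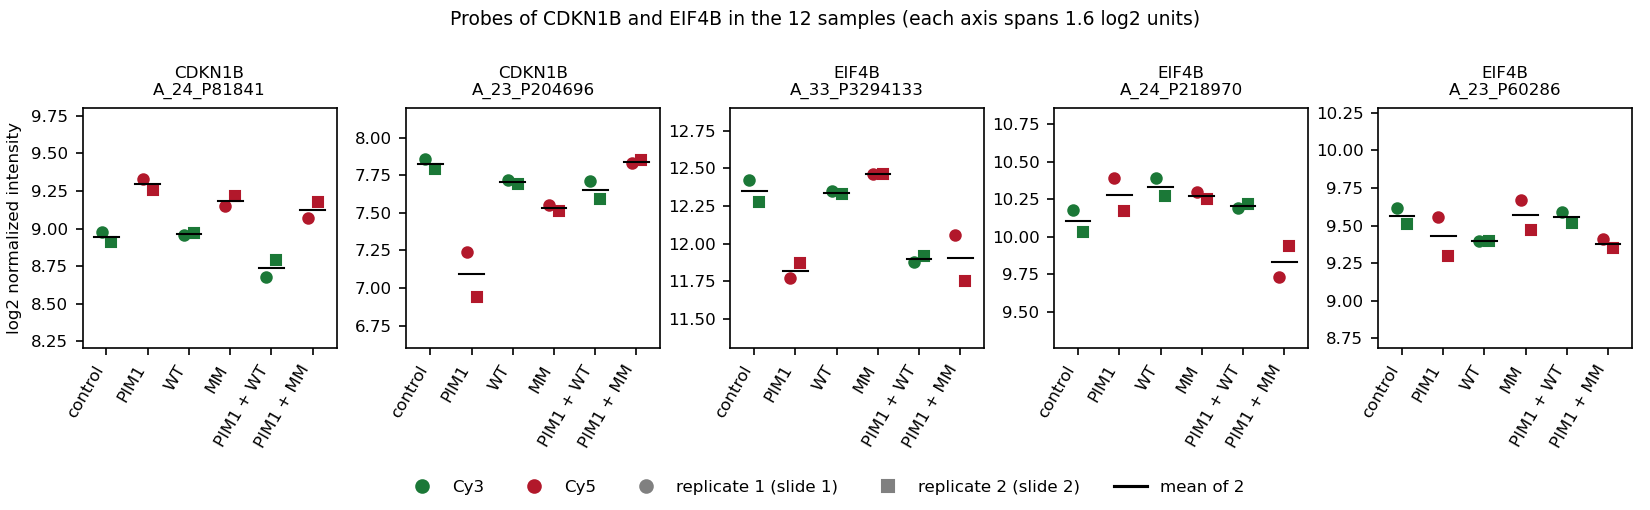
Log2 normalized intensity (vertical axes, all of the same span) of the 2 probes of CDKN1B and the 3 probes of EIF4B in the 6 groups. Circles are replicate 1 and squares replicate 2, green for Cy3 and red for Cy5, and black lines are group means. The CDKN1B probes move in opposite directions from control to PIM1 cells (0.35 and -0.74), and the EIF4B probe A_33_P3294133 is lower in all 3 groups with stable PIM1.

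EIF4B is a cofactor of the helicase that unwinds mRNA for translation, and PIM kinases are known to phosphorylate it. Its 3 probes also differed. Probe A_33_P3294133, annotated to another transcript than the remaining pair, read 12.42 and 12.28 in control cells, 11.77 and 11.87 in PIM1 cells, 12.35 and 12.33 in WT cells, 12.46 and 12.46 in MM cells, 11.88 and 11.92 in PIM1 + WT cells, and 12.06 and 11.75 in PIM1 + MM cells. Each of the 6 samples with stable PIM1 lay below each of the 6 without it, with 12.06 and 12.28 the nearest values. As for CDC25C, these were samples of the PIM1 line against samples of the control line. The probe fell by 0.53 in PIM1 against control cells (SE 0.0973, adjusted p = 0.00325), by 0.44 in PIM1 + WT against WT cells (SE 0.0973, adjusted p = 0.00828) and by 0.55 in PIM1 + MM against MM cells (SE 0.0973, adjusted p = 0.00405). Within a dye the effect was -0.50 (SE 0.0688, adjusted p = 0.000462), with -0.43 on slide 1 and -0.56 on slide 2.

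The fall at this EIF4B probe kept its direction in every alternative run, from -1.26 to -0.38 against control cells and from -0.72 to -0.39 within a dye. Without any 1 sample the call within a dye held, and median centring alone ended it (-0.72, adjusted p = 0.0907). The call in PIM1 + WT against WT cells was lost without WT replicate 1 or PIM1 + WT replicate 1 (-0.43 and -0.42, adjusted p = 0.055 and 0.0559) and with median centring (-0.76, adjusted p = 0.23). The call against control cells was lost when the array shared by the first replicates of both groups was left out (-0.41, adjusted p = 0.0735), and that in PIM1 + MM against MM cells with median centring (-0.67, adjusted p = 0.792).

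Probe A_24_P218970 was the middle of the 3 EIF4B probes in every sample and so gave the value of the gene. It read 10.18 and 10.03 in control cells, 10.39 and 10.17 in PIM1 cells, 10.39 and 10.27 in WT cells, 10.30 and 10.25 in MM cells, 10.19 and 10.22 in PIM1 + WT cells, and 9.73 and 9.94 in PIM1 + MM cells. Only PIM1 + MM cells stood apart, below the other 10 samples. On this gene value EIF4B fell by 0.28 with stable PIM1 within a dye (SE 0.0696, adjusted p = 0.0121), by 0.43 in PIM1 + MM against MM cells (SE 0.0985, adjusted p = 0.0141) and by 0.44 in PIM1 + MM against PIM1 cells (SE 0.0985, adjusted p = 0.0223). The limma change was only -0.13 in PIM1 + WT against WT cells (adjusted p = 0.425). In PIM1 against control cells it was 0.17 (adjusted p = 0.269), the opposite sign, and neither passed. PIM1 + WT cells exceeded PIM1 + MM cells by 0.36 (SE 0.0985, adjusted p = 0.0357). The third probe, A_23_P60286, ranged from 9.30 to 9.67 and gave -0.02 with stable PIM1 within a dye (SE 0.0697, adjusted p = 0.859).

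The EIF4B calls on the gene value were sensitive to single samples, to normalization and fit, and to the choice of probe. Within a dye the call was lost without WT replicate 1 (-0.25, adjusted p = 0.0514) and with median centring (-0.47, adjusted p = 0.192). In PIM1 + MM against MM cells it was lost without MM replicate 1, MM replicate 2 or PIM1 + MM replicate 1 (-0.46 to -0.33, adjusted p = 0.0574 to 0.078), and in PIM1 + MM against PIM1 cells without PIM1 replicate 1 or PIM1 + MM replicate 1 (both -0.33, adjusted p = 0.0958 and 0.0893). The call for PIM1 + WT against PIM1 + MM cells was lost without PIM1 + WT replicate 1, PIM1 + WT replicate 2 or PIM1 + MM replicate 1 (0.26 to 0.38, adjusted p = 0.137 to 0.158). With the brightest probe, A_33_P3294133, the latter 2 comparisons were close to 0 and unlike the gene value in sign (0.09 in PIM1 + MM against PIM1 cells). Median centring also ended the call in PIM1 + MM against MM cells (-0.58). In PIM1 + MM against PIM1 cells, median centring, these groups alone or leaving out the array of control replicate 1 ended it (-0.44 to -0.33). The call for PIM1 + WT against PIM1 + MM cells was also lost with median centring or these groups alone (0.36 to 0.69).

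CXCR4, the receptor for the chemokine CXCL12, whose surface display PIM1 is known to support, was not well above background in any of the 12 samples. Its probe had 10 spots, and at most 1 of the 10 was well above background in a sample. The raw intensity was 32.1 to 48.3 in Cy3 and 115 to 134 in Cy5, close to the limits set by the negative control spots given above for CDKN1A. ABCG2, an ATP-driven pump that exports drugs, was well above background in control replicate 2 and WT replicate 2 alone. Its log2 values lay between 6.24 and 6.57, and PIM1 cells, with 6.29 and 6.57, spanned nearly the whole range. Neither gene passed the test in any comparison. ABCG2, measured in 1 of 2 WT samples, gave nominal bounds from the means, without the spread between samples. They were 1.03-fold for WT over PIM1 + WT cells (limma adjusted p = 0.584) and 1.02-fold over MM cells (limma adjusted p = 0.747). The other WT sample, at 6.33, lay below PIM1 + WT replicate 2 at 6.37, so a higher level in WT cells is not shown.

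The log2 fold changes of the members in the 9 comparisons are drawn side by side, with those that passed the test boxed.

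**Figure D3:**
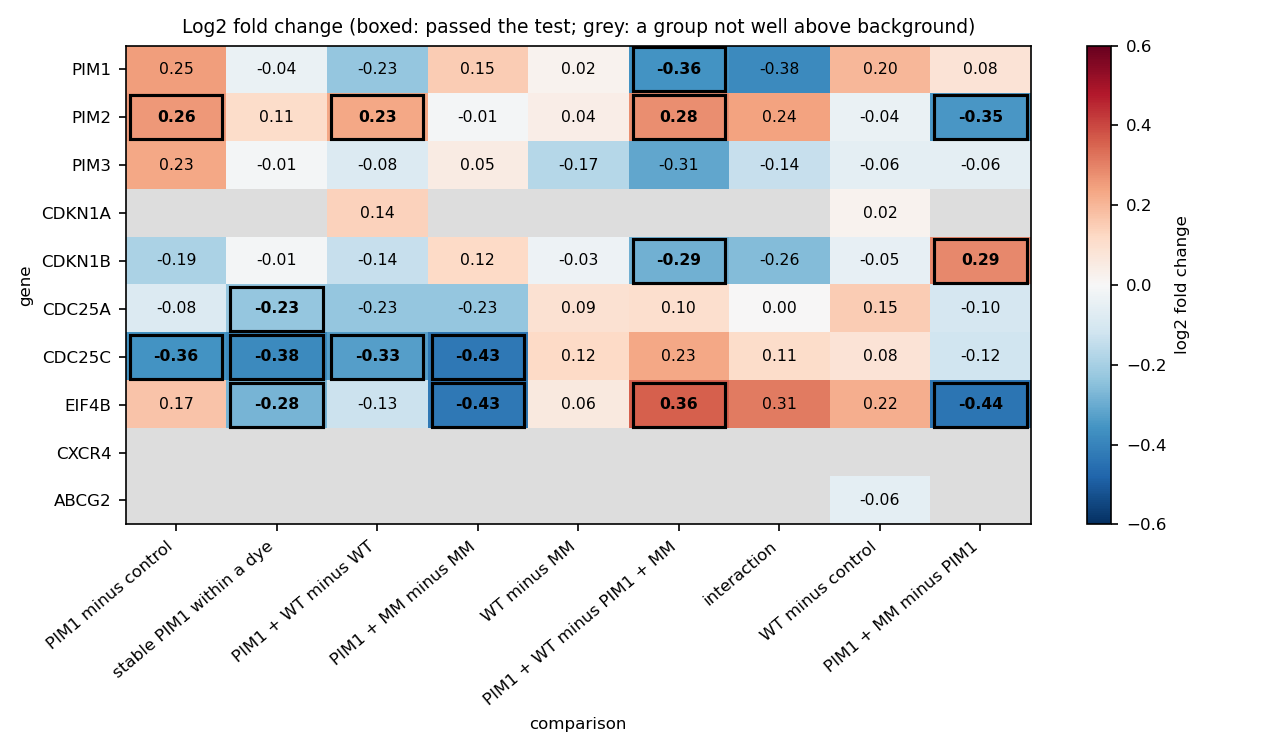
Log2 fold change (colour and printed value) of each member (rows) in the 9 comparisons (columns). Boxes mark members that passed the test and grey cells those with a group not well above background. CDC25C is boxed in the first 4 comparisons with -0.36, -0.38, -0.33 and -0.43, and no box stands in WT minus MM, the interaction or WT minus control.

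Counted over the members, 2 of 10 passed between PIM1 and control cells, PIM2 higher and CDC25C lower, where 25% of all genes tested passed. With the array as a fixed block 5 of 10 passed, against 33.9% of all genes under that block. With stable PIM1 within a dye 3 of 10 passed, all lower, against 34% of all genes. The counts were 2 of 10 for PIM1 + WT against WT cells (27.3% of all genes) and 2 of 10 for PIM1 + MM against MM cells (19.4%). In PIM1 + WT against PIM1 + MM cells 4 of 10 passed (16% of all genes), with PIM2 and EIF4B higher and PIM1 and CDKN1B lower, and in PIM1 + MM against PIM1 cells 3 of 10 (12.4%). With counts of 10 members such shares are not a result about the members as a set. The median change of the 10 members within a dye was -0.04, and 0.00 over all genes. No member reached an absolute log2 fold change of 1 in any comparison.

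With limma, 0 of 10 members passed between WT and MM cells, where 0.804% of all genes did, and 0 had an unadjusted p below 0.05. Between WT and control cells, within Cy3, 0 passed (0.233% of all genes), and 1, EIF4B, had an unadjusted p below 0.05 (0.0495). In the interaction 0 passed (2.18% of all genes), and 3 had an unadjusted p below 0.05, PIM1, PIM2 and CDKN1B. With the array as a random block PIM1 passed in the interaction, where 9.62% of all genes did under that block.

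The other genes of the PIM pathway were taken as lists by role. Their counts stand beside 34% of all genes that passed within a dye, 4292 higher and 4472 lower. The lists were chosen with earlier results of these data known, so these counts do not test any list as a set. Of 8 genes upstream of PIM expression, such as cytokine receptors, JAK kinases and STAT factors, 0 rose and 2 fell with stable PIM1 within a dye. JAK2, a kinase that relays cytokine signals, fell by 0.32 (SE 0.0771, adjusted p = 0.00962), a call lost with median centring (-0.45, adjusted p = 0.0978). Of 4 genes for PIM stability and binding, 0 rose and 1 fell within a dye. In PIM1 + WT against WT cells 1 rose and 1 fell (27.3% of all genes passed). In PIM1 + MM against MM cells 0 rose and 1 fell (19.4%). The gene lower within a dye was HSP90AA1, a chaperone that protects PIM1 from degradation, by 0.15 (SE 0.0408, adjusted p = 0.0216). That mean joined -0.36 with WT (limma adjusted p = 0.00145) and 0.07 with MM NFATC1 (0.445). The call was lost without WT replicate 1, MM replicate 1, PIM1 + WT replicate 1, PIM1 + WT replicate 2 or PIM1 + MM replicate 2 (-0.14 to -0.12). It was also lost with median centring, the processed signal or the array as a random block (-0.31 to -0.13, adjusted p = 0.0579 to 0.391).

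Of 24 genes for other PIM substrates, 4 rose and 11 fell within a dye, with a median change of -0.13. MYB, a transcription factor of progenitor cells that PIM1 is known to phosphorylate, fell by 1.08 (SE 0.0684, adjusted p = 5.2e-06), and it gave -1.04 between PIM1 and control cells, -1.07 with WT and -1.08 with MM NFATC1. This call held in every alternative run. NUMA1, a mitotic spindle protein, was 1.13 higher on the log2 scale in PIM1 + WT cells against PIM1 + MM cells (SE 0.0647, adjusted p = 3.59e-05). NFATC1, the transfected gene, had means of 7.58 in control, 6.91 in PIM1, 8.02 in WT and 7.58 in PIM1 + WT cells. Its means were 9.84 in MM and 9.65 in PIM1 + MM cells. WT minus control gave 0.44 (SE 0.075, limma adjusted p = 0.0687) and did not pass. The measured NFATC1 level thus differed along with the NFATC1 form. Log2 fold changes were -1.82 for WT minus MM, -2.07 for PIM1 + WT minus PIM1 + MM and 2.73 for PIM1 + MM minus PIM1 cells. They shrank to -0.12, -0.15 and turned to -0.08 with the filter in all 12 channels, under which fewer probes enter the median.

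Of 14 cell cycle partners of CDC25A and CDC25C, the cyclins, kinases and checkpoint genes, 1 rose and 9 fell within a dye, and the median change was -0.47 against 0.00 over all genes. CDKN1C, or p57, the third inhibitor of the family of CDKN1A and CDKN1B, fell by 0.88 (SE 0.0681, adjusted p = 1.52e-05), and by 1.02 in PIM1 + WT against WT cells (SE 0.0963, adjusted p = 8.64e-05), the latter call lost with median centring (-1.29, adjusted p = 0.0573). With median centring 7 of the 14 passed, 0 of them higher, where 4.54% of all genes passed. Because this list was chosen with earlier results known, its shares and median describe these genes and do not test them as a set.

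Of 8 genes of cap-dependent translation, the process that EIF4B serves, 3 rose and 1 fell within a dye. EIF4G1, the scaffold of the cap-binding complex, rose by 0.56 (SE 0.0394, adjusted p = 8.45e-06), opposite in sign to EIF4B. Of 8 genes tested for the chemokine response and drug efflux (of 9 in the list), 1 rose and 2 fell, one of the latter with a group not well above background. GRK6, a kinase that desensitizes chemokine receptors, rose by 0.36 (SE 0.039, adjusted p = 0.000111). The EIF4G1 and GRK6 calls were lost with median centring only (0.34 and 0.19, adjusted p = 0.345 and 0.449).

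**Figure D4:**
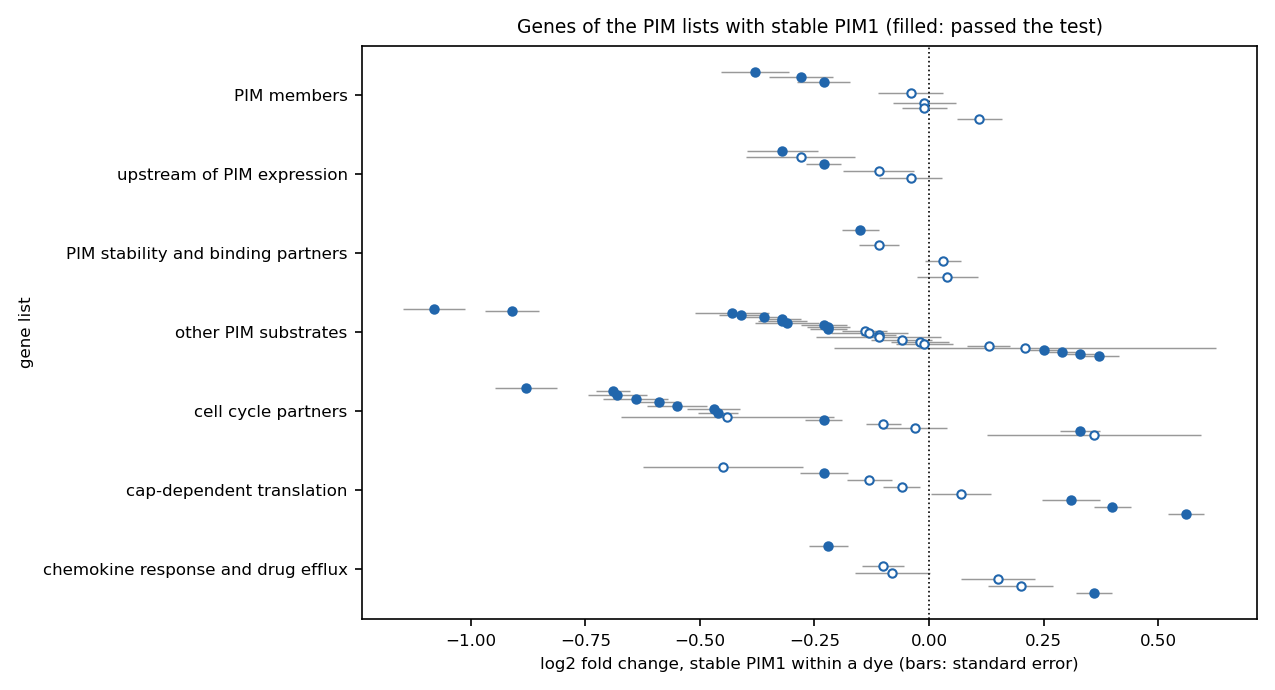
Log2 fold change with stable PIM1 within a dye (horizontal axis, bars are standard errors) of each gene, as a point, in the members and the 6 other PIM lists (vertical axis). Filled points passed the test, and genes with a group not well above background are left out. Of the cell cycle partners 9 of 14 lie lower and filled, and the members drawn lie between -0.38 and 0.11.

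The plot of fold changes under each processing setting shows which member results kept their sign.

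**Figure D5:**
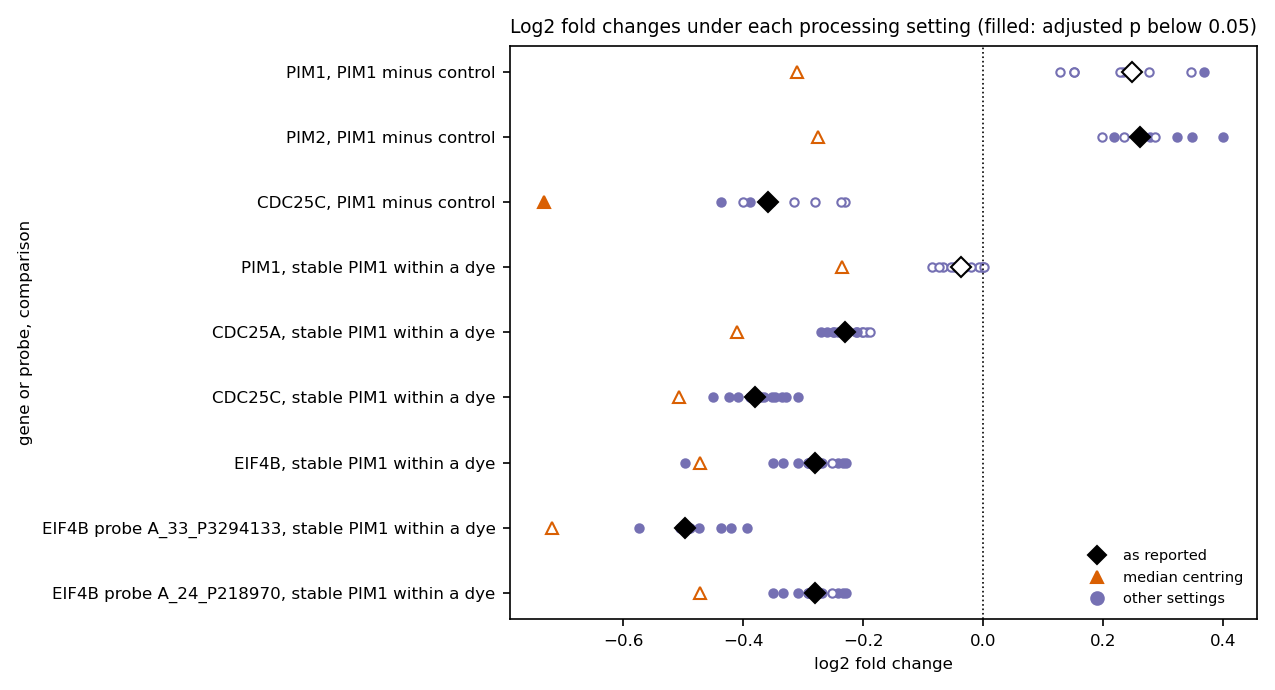
Log2 fold change (horizontal axis) of PIM1, PIM2, CDC25A, CDC25C, EIF4B and 2 EIF4B probes under each setting, for the comparison named on the vertical axis. Diamonds are the values as reported, triangles median centring and circles the other settings and samples left out, filled where the adjusted p is below 0.05. PIM1 and PIM2 against control cells turn to -0.31 and -0.28 with median centring, while CDC25C, CDC25A and EIF4B stay below 0.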

How the data were processed

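Total RNA of 12 PC-3 samples was labelled with Cy3 or Cy5 and hybridized to 6 two-colour Agilent human 4x44K arrays on 2 slides. The authors' scanner files, deposited as extracted by Feature Extraction, hold raw intensities of the median pixel of each spot, and a processed intensity that is background subtracted and dye normalized. The deposited value table holds log2 values that the authors quantile normalized, 1 row per spot, and its direction and scale were set against the scanner values. Here control spots and outlier flags were left out and spots of a probe were averaged. A probe was kept where it exceeded the 90th percentile of negative control spots, the limit in the study's methods, in at least 2 channels, a number chosen here (31484 of 34127 probes). As in those methods, raw intensities were turned to log2, quantile normalized over the 12 channels and summarized by the median over the probes of a symbol.

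A mean per group was fitted over all 12 samples with limma 3.58.1 in R 4.3.3 (lmFit and eBayes), and p-values were adjusted by Benjamini-Hochberg over all 25746 genes, or over all probes for single probes. Scripts were tested on simulated data. Groups came from the sample titles. The members and lists were chosen with earlier results of these data known. All 10 members are named; of the other lists, genes with a log2 fold change of 1 or more in size in any comparison, and the gene of each list with the largest change within a dye, are named among those that passed, with NFATC1 where a result turns on it. Arrays give no read depth, and their number limits the precision. Alternatives were the background correction, normalization, signal, filter, probe summary, blocks for slide and array, and each sample left out. Promoters came from RefSeq (GRCh38.p14); sequences of probes and proteins were not used here. Some marker genes are not reported here.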

Additional observations from a re-analysis of the deposited data

Results flagged for a closer look

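For 3 of the genes named here from the PIM lists, the effect of stable PIM1 differed between cells with wild-type and with multi mutant NFATC1. The test was the interaction term of the limma fit, which other genes of the lists passed too. For NUMA1, a mitotic spindle protein, the interaction was 0.94 (SE 0.0915, adjusted p = 0.00495), from 0.84 in PIM1 + WT against WT cells and -0.10 in PIM1 + MM against MM cells, and median centring ended the call (0.91). For EIF4G1, the scaffold of the cap-binding complex, it was 0.46 (SE 0.0789, adjusted p = 0.0226), from 0.80 and 0.33, a call lost without 7 of the 8 samples in turn, PIM1 + MM replicate 1 being the exception (0.42 to 0.51, adjusted p = 0.0638 to 0.126), and with median centring (0.29). For HSP90AA1, a chaperone, it was -0.44 (SE 0.0816, adjusted p = 0.0314), from -0.36 and 0.07, lost without each of the 8 samples in turn (-0.48 to -0.39, adjusted p = 0.0507 to 0.168) and under 5 settings (-0.62 to -0.14).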

How the results depend on the processing

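Of 1012 values for 53 single results under an alternative, 829 kept their direction and side of the threshold, 169 lost the call, 5 gained one and 9 changed sign. With median centring PIM1, PIM2 and CDKN1B probe A_24_P81841 in PIM1 against control cells turned to -0.31, -0.28 and -0.0911. For PIM1, stable PIM1 within a dye gave 0.000617 with loess, and -0.0733 to 0.000746 without each sample in turn. With the probe of highest mean, EIF4B was -0.0048 in PIM1 + WT against PIM1 + MM cells and 0.0889 in PIM1 + MM against PIM1 cells, and CDKN1B was -0.17 in the latter. NFATC1 in PIM1 + MM against PIM1 cells was -0.0836 with the filter in all 12 channels. The causes were not tested.

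The count of 2 members called in PIM1 against control cells became 1 with median centring, 4 with the processed signal, 4 with the filter in all 12 channels, 4 with the probe of highest mean, 5 with the array as either kind of block, 0 in a fit to these groups alone, and 0 to 2 without each sample in turn. The 3 called within a dye became 5 with loess, 0 with median centring and 1 to 3 without each sample. The 2 in PIM1 + WT against WT cells became 1 with loess, with the deposited table, with the array as a random block or without the first 33 rows of PIM1 + MM replicate 2, 0 with median centring or without any sample, and 4 with the probe of highest mean. The 2 in PIM1 + MM against MM cells became 0 with median centring, 1 with these groups alone and 0 to 1 without each sample. The 4 in PIM1 + WT against PIM1 + MM cells became 2 with loess, 0 with median centring or these groups alone, and 0 to 4 without each sample. The 3 in PIM1 + MM against PIM1 cells became 0 with median centring or these groups alone, 1 with the probe of highest mean and 1 to 2 without each sample. The interaction gained 1 with either block for the array. Where a group was left with 1 sample, that sample was assumed to vary like the others.

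Deviations of same-numbered samples from their group means correlated above 0.1 in 7 of 15 pairs of groups (0.0513 to 0.833), and most where 2 groups share an array (0.833 for control and PIM1, 0.497 for WT and MM, 0.345 for PIM1 + WT and PIM1 + MM). All 15 pairs had a correlation above 0. Between groups on different arrays the largest was 0.171, for MM and PIM1 + MM cells. With the slide as a replicate block the counts of members called stayed at 2 in PIM1 against control cells, 3 within a dye, 2 with WT, 2 with MM, 4 in PIM1 + WT against PIM1 + MM cells, 3 in PIM1 + MM against PIM1 cells and 0 in the other 3. Signals near background limit CDKN1A, CXCR4 and ABCG2, and dim Cy5 signals limit CDKN1B probe A_23_P204696 in PIM1 cells. Comparisons of PIM1 with control cells and of the NFATC1 forms set Cy3 against Cy5, so that dye and group cannot be told apart there.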
